A study of Mus musculus with 12 samples.

Results

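The genes of the ribosomal proteins, cytosolic and mitochondrial, were followed in macrophages that had met tumor material, myelin or neither. Members were taken by name among protein-coding genes: symbols beginning Rpl or Rps with a digit, Rplp0 to Rplp2, and Mrpl or Mrps with a digit, without the Rps6k kinases. This gave 168 of 24728 listed genes, of which 90 were cytosolic and 78 mitochondrial. The name rule also caught members that are no subunit of their own class: Rps19bp1 encodes a binding partner of a small-subunit protein, Rpl10-ps3, Rpl9-ps1, Rpl9-ps6, Rpl36a-ps1 and Rps18-ps5 carry pseudogene names, and Rps23rg1 and Rps27rt are retrogenes. This list may not be complete. Enough reads for a test were found for 85 cytosolic and 77 mitochondrial members. The 6 without were Rps23rg1, Rpl9-ps1, Rpl36a-ps1, Rpl3l, Rpl24 and Mrpl53.

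The libraries were 12, from mouse bone-marrow derived macrophages carrying the red fluorescent protein dTomato and sorted by it from ex vivo assays with dissociated brain tumor. The 4 groups were Full Tumor, Tumor without Myelin, Myelin Alone and Control, with 3 libraries each, of which 1 carried each of the mn numbers 957, 958 and 016. What "mn" means, how long the exposure lasted, what Control cells received and which mouse tumor model supplied the material are not given in the labels. Nor is it stated that the 3 libraries of a group came from different animals, so the spread behind each p-value may be only technical.

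Cytosolic ribosomes read the messenger RNAs of the nucleus, and each is built in the nucleolus from a small subunit that decodes the message and a large subunit that joins the amino acids. Their protein messages commonly begin with a run of pyrimidines, the terminal oligopyrimidine start, through which mTORC1 signaling sets how strongly they are translated. Mitochondrial ribosomes are made of another set of nuclear-encoded proteins, imported into the organelle, and translate the few respiratory chain messages of mitochondrial DNA.

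The start sites of 7 members are shown because they carry the features the classes shared or did not share. These are RefSeq promoters of build GRCm38.p6, from 50 bases before to 20 bases after the annotated start, 5′ to 3′ on the gene's strand. Capitals mark the word CCGGAAG on either strand (the reverse reads CTTCCGG), the core of sites bound by ETS factors such as GABPA, and the run of C and T at a terminal oligopyrimidine start.
Rps27, chr3:90213629-90213698, minus strand: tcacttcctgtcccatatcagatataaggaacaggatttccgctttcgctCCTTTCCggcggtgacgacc
Rpl38, chr11:114668530-114668599, plus strand: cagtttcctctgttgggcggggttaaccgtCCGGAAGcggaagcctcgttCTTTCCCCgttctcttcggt
Rps10, chr17:27635225-27635294, minus strand: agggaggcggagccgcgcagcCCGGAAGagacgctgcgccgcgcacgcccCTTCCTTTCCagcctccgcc
Rps7, chr12:28635934-28636003, minus strand: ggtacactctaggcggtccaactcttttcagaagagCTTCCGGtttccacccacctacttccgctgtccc
Mrps22, chr9:98601660-98601729, minus strand: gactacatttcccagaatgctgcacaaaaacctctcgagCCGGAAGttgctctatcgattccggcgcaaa
Mrpl52, chr14:54426859-54426928, plus strand: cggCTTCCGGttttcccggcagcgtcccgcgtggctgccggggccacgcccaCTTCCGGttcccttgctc
Mrpl3, chr9:105053218-105053287, plus strand: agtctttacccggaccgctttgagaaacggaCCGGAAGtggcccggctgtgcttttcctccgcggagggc

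Promoters of 300 bases (250 before and 50 after the start) were matched for 134 of the 168 members. CCGGAAG, on either strand, was present in 25 of 65 cytosolic members (38.5%) and 26 of 69 mitochondrial members (37.7%), beside 9.93% of 27025 genes with a promoter. The terminal oligopyrimidine start, a C at the annotated first base followed by at least 4 C or T, was found in 14 of 65 cytosolic members (21.5%) and 0 of 69 mitochondrial members, beside 3.01% of all genes. TCTCGCG, on either strand, was in 14 cytosolic members (21.5%) and 4 mitochondrial members (5.8%), beside 2.92% of all genes. AAGATGG, the core bound by YY1, on either strand, was in 10 (15.4%) and 13 (18.8%), beside 7.28%. CCGGAAG and AAGATGG share the letters AAG and can overlap, so 1 stretch can count under both, and a match describes letters only. Member promoters were richer in G and C, with a median of 57% for cytosolic and 58.3% for mitochondrial members, beside 52.7% for all genes, and the shares were not adjusted for this. A start base placed a few bases off would hide an oligopyrimidine start, so its share depends on the annotation.

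Per length, cytosolic members stood above mitochondrial members. The median was 134 CPM per kb of transcript (CPM is a count scaled to its library's size) for 90 cytosolic members and 40.4 for 78 mitochondrial members, while 13403 tested genes of known length had a median of 5.87. Among the 6 cytosolic members with the most reads, Rplp0, the scaffold of the stalk that recruits translation factors, stood at 727 CPM per kb, and Rpl4, which lines the exit tunnel, at 524. Rps14 of the small-subunit platform stood at 462, Rps9 of the small-subunit body at 401, Rps3 at the message entry at 296 and Rpl3 near the peptidyl transferase center at 256. Among the mitochondrial members with the most reads, the large-subunit proteins Mrpl42 and Mrpl28 stood at 266 and 205 CPM per kb. Mrpl12, which binds factors at the stalk, stood at 117, Mrpl4 at 115, the small-subunit protein Mrps14 at 63.9 and Mrpl51 at 41.1.

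Some subunits that every ribosome needs had few or almost no reads. Rps10, at the small-subunit beak, averaged 0.603 CPM per kb over the 12 libraries, and Rpl24, a bridge to the small subunit, 0.427. Rpl23a, at the exit tunnel, averaged 2.19 CPM per kb. Rpl13a, at 5.4, was low for its class but near the median of 5.87 over all tested genes. In CPM without length, the Rpl23a row held 1.23 and rows named as its copies 13.2, of which Rpl23a-ps3 alone held 12.9, so 91.5% of the reads under this name lay on copies. For Rps10 the share on copies was 72.6%, but both together held few reads, and for Rpl17 it was 22.7%. All 234 copy rows held 102 CPM. Values of members with near-identical copies are therefore uncertain. In the mitochondrial class Mrpl53, a large-subunit protein, was the exception, with 8 reads over all libraries. In all, 7 cytosolic members and 1 mitochondrial member were under 1 CPM.

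**Figure D1:**
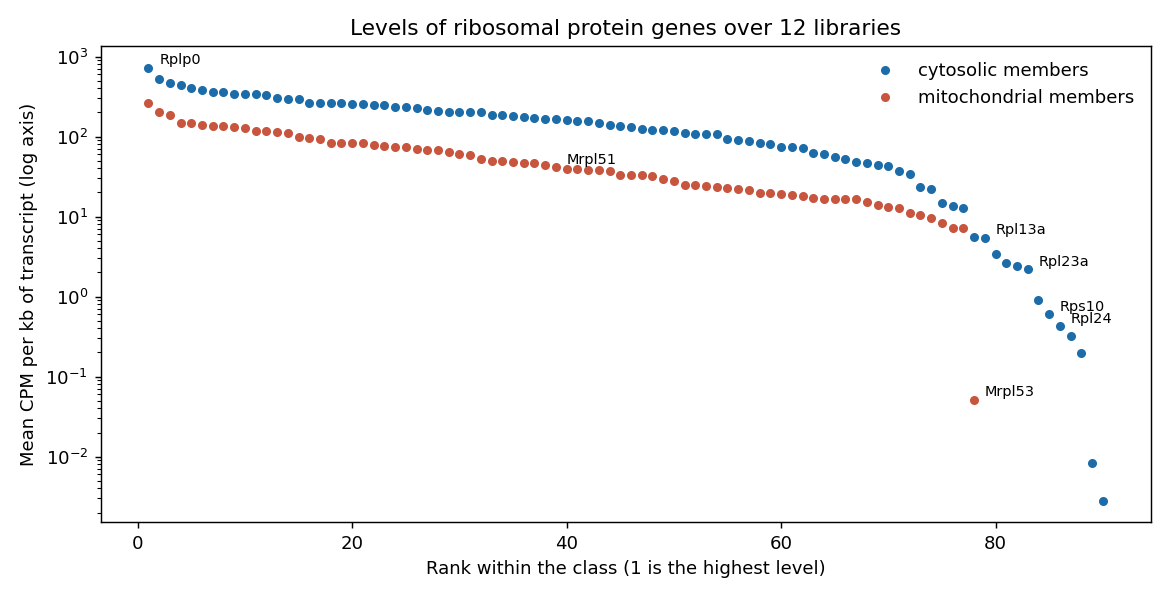
Mean level of each member over 12 libraries, in CPM per kb of transcript on a log axis, ordered within its class. Cytosolic members (median 134) lie above mitochondrial members (median 40.4) over most ranks, and the low end of the cytosolic class holds Rpl23a, Rps10 and Rpl24.

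Paralogs were of unequal level. Rps27l, a paralog of the small-subunit protein Rps27 and a p53 target, stood at 342 CPM per kb, beside 333 for Rps27 and 13.6 for the retrogene Rps27rt. Rpl7l1, a nucleolar paralog of Rpl7, stood at 82.3, beside 265 for Rpl7. Rpl22l1 stood at 12.7, beside 23.4 for Rpl22, and Rpl36al at 3.44, beside 123 for Rpl36a. Rpl3l, known from muscle, and Rpl39l, known from testis, were close to absent at 0.198 and 0.893 CPM per kb, beside 256 for Rpl3 and 55.2 for Rpl39. Of the 3 mitochondrial paralogs, Mrps18a stood at 148, Mrps18c at 50.1 and Mrps18b at 13.9. Mrps18a, despite its name, is held in the large mitochondrial subunit.

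The groups were compared to ask whether tumor material or myelin changed the supply of ribosomal protein messages. No member was called (adjusted p under 0.05) in any of the 5 comparisons between groups, in either class, with group as the only term or with the mn number as a block. The edgeR quasi-likelihood test called 0.813% of 13414 tested genes between Full Tumor and Control with the block, 0.745% between Tumor without Myelin and Control, and 0.0373% between Myelin Alone and Control. By direction, 0.634% were higher and 0.179% lower in the first, 0.559% and 0.186% in the second, and 0.00745% and 0.0298% in the third. Between Full Tumor and Tumor without Myelin it called 0%, and between both tumor groups and the other 2 groups 2.25%, with 1.63% higher and 0.626% lower. With group only these shares were 0%, except 0.0745% in the last comparison. At an unadjusted p under 0.05 with the block, edgeR found 4 of 85 cytosolic and 6 of 77 mitochondrial members in that comparison, where 12.7% of all genes had such a p. In the other comparisons it found at most 1 cytosolic and 2 mitochondrial members, while 9.83% of all genes had such a p for Full Tumor against Control, 9.48% for Tumor without Myelin against Control, 6.04% for Myelin Alone against Control and 3.88% for Full Tumor against Tumor without Myelin. DESeq2 called 0 members in each of the 5.

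The intervals were narrow enough to bound the changes. Of the 75 cytosolic and 76 mitochondrial members with a mean of at least 10 CPM, every 95% interval of the fold change with the block lay within 2-fold in each of the 5 comparisons. Within 1.5-fold lay 75 cytosolic and 76 mitochondrial intervals for both tumor groups against the other 2, 73 and 70 for Full Tumor against Control, and 63 and 68 for Tumor without Myelin against Control. For Myelin Alone against Control they were 75 and 74. These intervals use approximate standard errors and are not adjusted for the number of members.

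Summed over members, the groups overlapped in both classes. In the order of numbers 957, 958 and 016, cytosolic members summed to 13276, 14411 and 10995 CPM in Full Tumor, 11484, 14203 and 11296 in Tumor without Myelin, 11030, 16724 and 14020 in Myelin Alone, and 14083, 14561 and 12376 in Control. Both tumor groups lay below Control within each of the 3 numbers, while Myelin Alone lay above Control in 958 and 016 and below it in 957. Group means were 12894 ± 1740, 12328 ± 1627, 13925 ± 2849 and 13673 ± 1149 CPM (SD, n = 3 each) in that order of groups, so differences between group means were within the spread over libraries. Paired by number, the cytosolic sum differed from Control by −807, −150 and −1381 CPM in Full Tumor (mean −779, SD 616). In Tumor without Myelin it differed by −2599, −358 and −1080 CPM (mean −1346, SD 1144). Each mean was larger than its SD, but both rest on 3 pairs with the same Control libraries and were not tested. Mitochondrial members summed to 5511, 6153 and 5248 CPM in Full Tumor, 5231, 5842 and 5310 in Tumor without Myelin, 4952, 6739 and 6071 in Myelin Alone, and 5270, 6075 and 6013 in Control. Tumor without Myelin lay below Control in each number and Full Tumor in 1 of the 3. The cytosolic sum was 2.28 ± 0.165 times the mitochondrial sum in Full Tumor, 2.25 ± 0.159 times in Tumor without Myelin, 2.34 ± 0.13 times in Myelin Alone and 2.38 ± 0.308 times in Control. Fewer cells of a type and less of an RNA per cell cannot be told apart in such bulk libraries.

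**Figure D2:**
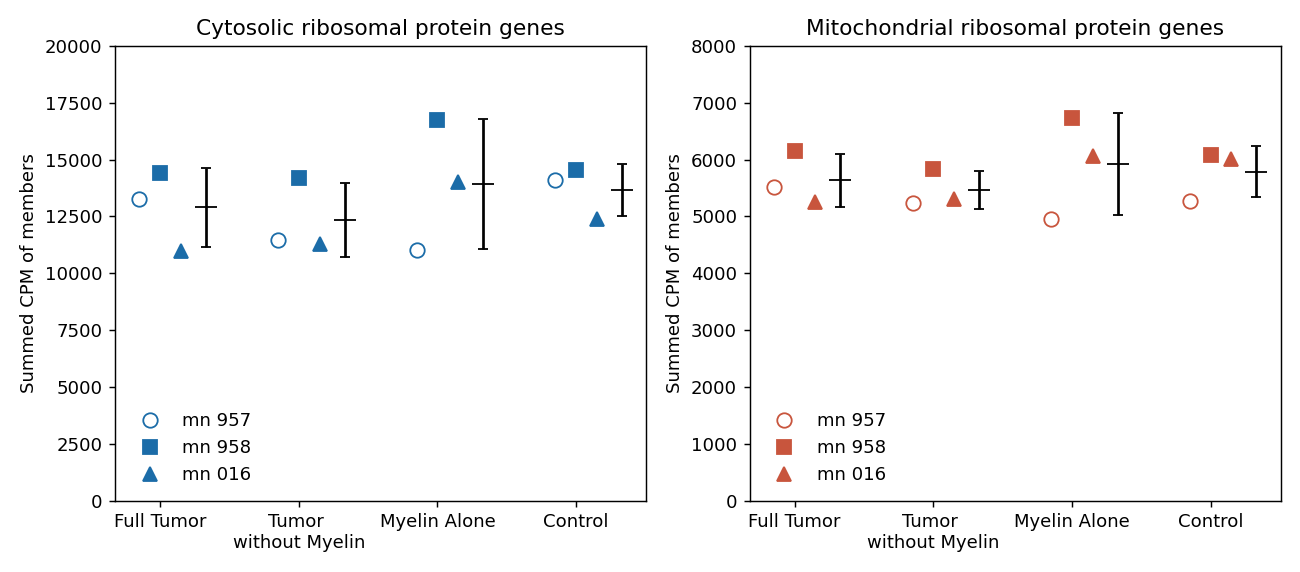
Summed CPM of cytosolic members (left) and mitochondrial members (right) by group, 1 symbol per library with its mn number, and black bars for mean ± SD over 3 libraries. The groups overlap, and the 958 squares are the highest symbol in every group in both panels.

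The medians of both classes were below 0 in both tumor groups. With the block, the median log2 fold change of the 85 cytosolic members was −0.091 for Full Tumor against Control and −0.17 for Tumor without Myelin against Control, with 66 and 79 members below 0 and a median standard error of 0.146 and 0.147. For mitochondrial members the medians were −0.05 and −0.093, with 50 and 64 of 77 below 0. All tested genes had medians of 0.005 and 0.004, with 49.1% and 49.5% below 0. Both comparisons share the Control libraries. By number 957, 958 and 016 the cytosolic median of Tumor without Myelin against Control was −0.321, −0.013 and −0.123, and that of Full Tumor against Control −0.081, 0.01 and −0.182, so 958 held next to no shift in either. The mitochondrial medians of Full Tumor against Control were 0.042, 0.011 and −0.21 by number, of changing sign, and those of Tumor without Myelin against Control 0.003, −0.062 and −0.183. For both tumor groups against the other 2 groups, the cytosolic median was −0.13 with 79 of 85 below 0 and the mitochondrial median −0.075 with 63 of 77 below 0, beside 50.3% of all genes. There the cytosolic median by number was −0.006, −0.118 and −0.255, with next to no shift in 957, and the mitochondrial median 0.071, −0.091 and −0.223. Members share libraries and are not replicates, so these counts carry no p.

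Medians were near 0 for myelin without tumor material. For Myelin Alone against Control, medians were 0.018 in the cytosolic and 0.016 in the mitochondrial class. By number 957, 958 and 016, the cytosolic median was −0.42, 0.242 and 0.204, of changing sign. For Full Tumor against Tumor without Myelin, the medians were 0.078, with 73 of 85 cytosolic members above 0, and 0.033, with 54 of 77 mitochondrial members above 0. By number the cytosolic median was 0.247, 0.036 and −0.059, again of changing sign.

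**Figure D3:**
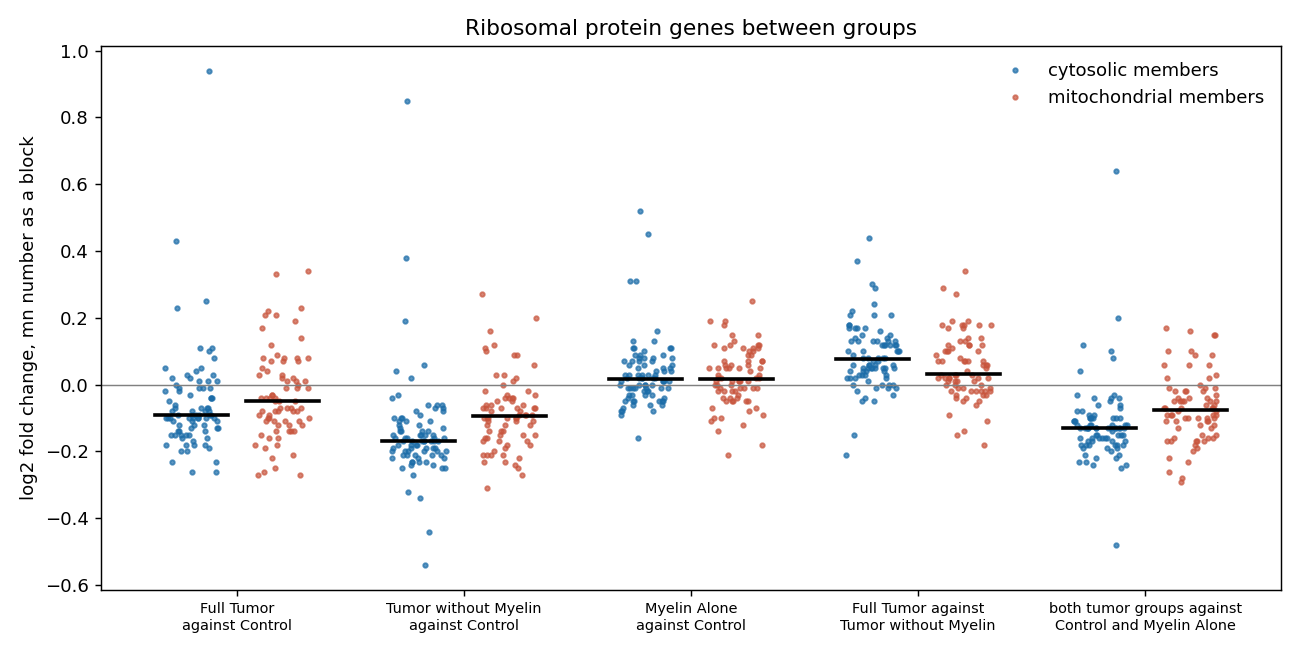
Log2 fold change of each tested member with the mn number as a block, in 5 comparisons between groups, with black lines at class medians. The cytosolic medians of both tumor groups against Control (−0.091 and −0.17) lie below 0. No point passed the threshold.

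Single members near the ends of the range, by log2 fold change with the block, were named as follows. Among small-subunit genes, Rps27, a zinc-finger protein, was measured at 120, 141 and 59.8 CPM in Full Tumor and at 150, 144 and 81.1 CPM in Control for 957, 958 and 016. It was lower in each number, yet the number 016 lay far from both others in Full Tumor and in Control. The fold change of −0.26 ± 0.17 did not pass (edgeR adjusted p = 0.67). Rps12 stood at −0.27 ± 0.21 for Tumor without Myelin against Control (edgeR adjusted p = 0.776), and Rps13 at −0.04 ± 0.13 (edgeR adjusted p = 0.956).

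In the large subunit, Rpl36a, a protein at the tRNA exit site, stood at 43.5, 59.2 and 51.1 CPM in Tumor without Myelin, against 70.5, 67.9 and 55.6 CPM in Control. It was lower in each number, and its fold change of −0.34 ± 0.15 did not pass (edgeR adjusted p = 0.496). Rpl31, at the rim of the exit tunnel, stood at −0.32 ± 0.16 there (edgeR adjusted p = 0.579), with within-number differences of −0.43, −0.15 and −0.37. Rpl35, also at the exit rim, stood at −0.23 ± 0.15 for Full Tumor against Control (edgeR adjusted p = 0.7), while Rpl3, Rpl21 and Rpl27 stood at 0.1, 0.08 and 0.11. Without Myelin Alone 957, edgeR with the block called 3 cytosolic members lower in both tumor groups against the other 2, among them Rpl31 (−0.36 ± 0.08, adjusted p = 0.0478) and Rplp0 (−0.23 ± 0.05, adjusted p = 0.0478). In that fit it called 2.09% of 14000 tested genes (0.657% lower). With all libraries there were 0.

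In the mitochondrial class, Mrpl9 of the large subunit was measured at 50.1, 59.3 and 47.3 CPM in Full Tumor, against 40.4, 40 and 42.9 CPM in Tumor without Myelin and 42.3, 39.1 and 43.2 CPM in Control. The 3 Full Tumor libraries lay above all 6 of the others. Its fold change was 0.34 ± 0.14 against Tumor without Myelin (edgeR adjusted p = 1) and 0.33 ± 0.13 against Control (edgeR adjusted p = 0.436). Mrps35 of the small subunit stood at 38.3, 41.6 and 38.1 CPM in Full Tumor, against 35.2, 29.6 and 28.5 CPM in Control, with no overlap. This gave 0.34 ± 0.14 (edgeR adjusted p = 0.415). Mrpl9 and Mrps35 were named for fold changes among the 3 highest of their class, a choice that favors libraries without overlap. The share of all genes with such a separation was not counted. Mrpl14 of the large subunit stood at −0.29 ± 0.1 for both tumor groups against the other 2 (edgeR adjusted p = 0.224), lower in each number by 0.14 to 0.36 on the log2 scale. Mrpl38 and Mrpl41 stood at −0.26 and −0.28 there, Mrps30 and Mrpl48 at −0.27 each for Full Tumor against Control, and Mrps5 at 0.25 ± 0.17 for Myelin Alone against Control (edgeR adjusted p = 0.945).

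Between the numbers, members of both classes were called. The 4 highest of the 12 cytosolic sums were those of the 4 libraries numbered 958 (14203 to 16724 CPM), while those of 016 ranged over 10995 to 14020 and those of 957 over 11030 to 14083. Mitochondrial sums were 5248 to 6071 CPM in 016, 4952 to 5511 in 957 and 5842 to 6739 in 958. For 016 against the mean of 957 and 958, in the fit with group and number, edgeR called 24 of 85 cytosolic members (28.2%), 2 higher and 22 lower, and 19 of 77 mitochondrial members (24.7%), 7 higher and 12 lower. Over all tested genes it called 33.7%, of which 18.7% were higher and 15% lower. The share of members called was thus no higher than that of all genes, and the cytosolic calls were mostly lower. The median was −0.232 with 75 of 85 members below 0 in the cytosolic class and −0.038 with 42 of 77 below 0 in the mitochondrial class, beside −0.001 for all genes.

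Which number 016 was set against decided the counts. Against 957 alone (without 958), edgeR called 2 cytosolic members, Rps27 and Rpl22l1, both lower, and 4 mitochondrial members, Mrpl18, Mrpl28, Mrpl37 and Mrpl50, all higher, beside 12.2% of 13514 tested genes. The medians were then −0.057 and 0.056. Against 958 alone (without 957) it called 64 cytosolic members, 62 of them lower, and 28 mitochondrial members, beside 33.7% of 13606 tested genes (15.4% lower), with medians of −0.42 and −0.145. Within groups, the cytosolic median of 016 against the mean of the other numbers was −0.392 in Full Tumor, −0.208 in Tumor without Myelin, 0.021 in Myelin Alone and −0.292 in Control. Without Full Tumor, Tumor without Myelin or Control 016, the 24 cytosolic calls became 10, 12 and 12 and the 19 mitochondrial calls 6, 8 and 10, beside 22.1%, 20.9% and 26.1% of all genes in these fits. Without Myelin Alone 957 the cytosolic calls became 51, beside 34.5% of all genes. Without Myelin Alone 958 they became 14 and without Control 957 15, beside 29.6% and 28%.

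In the small subunit, Rps27 (chromosome 3, 90212522 to 90213651, mm10) was the abundant member with the lowest fold change. Its CPM in Full Tumor, Tumor without Myelin, Myelin Alone and Control was 59.8, 69.1, 93.4 and 81.1 for 016. It was 120, 109, 96.1 and 150 for 957 and 141, 146, 168 and 144 for 958. All 4 libraries of 016 lay below the 8 others. Like Rpl22l1 and Mrpl50 below, it was named for a fold change at the end of its class, a choice that favors libraries without overlap. The share of all genes with such a separation was not counted. Rps27 fell by 0.82 ± 0.13 on the log2 scale (edgeR adjusted p = 0.00076). Its paralog Rps27l (chromosome 9, 66946086 to 66949516) averaged 191 ± 23.8 CPM in 016 (SD, n = 4) and 161 ± 27.5 CPM in 957 and 958 (SD, n = 8), a change of 0.25 ± 0.1 that did not pass (edgeR adjusted p = 0.0723). Rps27rt fell too, by 0.88 ± 0.22 (edgeR adjusted p = 0.0101), but it is a near copy of Rps27 and shared reads cannot be told apart. Rps20 and the platform protein Rps14 fell by 0.59 and 0.5, Rps9 by 0.49 and Rps7 by 0.33 (edgeR adjusted p of 0.00142 to 0.0285).

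In the large subunit, Rpl22l1 (chromosome 3, 28805436 to 28807424) had 2.5, 4.61, 4.49 and 2.94 CPM in the 016 libraries of Full Tumor, Tumor without Myelin, Myelin Alone and Control. It had 7.18, 8.22, 7.95 and 7.4 CPM in 957 and 12.3, 8.79, 10.9 and 6.86 CPM in 958, with no overlap. It fell by 1.27 ± 0.23 on the log2 scale (edgeR adjusted p = 0.00191), while Rpl22 itself stood at −0.35 ± 0.13 (edgeR adjusted p = 0.0527). Rpl10a of the mobile stalk that releases tRNA fell by 0.59 ± 0.11 and Rpl3 by 0.39 ± 0.07 (edgeR adjusted p = 0.00205 and 0.00142). The 2 members that rose were Rpl7l1, at 248 ± 7.78 CPM in 016 (SD, n = 4) and 197 ± 13.4 CPM in 957 and 958 (SD, n = 8), and Rplp0, at 1100 ± 134 and 931 ± 67.3 CPM. Their fold changes were 0.33 ± 0.07 and 0.24 ± 0.06 (edgeR adjusted p = 0.00303 and 0.012). Rpl7, the paralog of Rpl7l1, fell by 0.29 ± 0.09 (edgeR adjusted p = 0.0221). Rpl39l had the highest fold change of the class at 1.07 ± 0.69 and did not pass (edgeR adjusted p = 0.261), at 1.11 CPM in 016 and 0.521 CPM in 957 and 958.

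In the mitochondrial class, large-subunit genes stood at both ends. Mrpl50 (chromosome 4, 49512596 to 49521093) had 67.5, 74.8, 53.2 and 72.8 CPM in the 016 libraries of Full Tumor, Tumor without Myelin, Myelin Alone and Control. It had 44.4, 46.8, 50.2 and 44.7 CPM in 957 and 42, 41, 39.5 and 35.8 CPM in 958, all below 016. It rose by 0.64 ± 0.11 on the log2 scale (edgeR adjusted p = 0.00113). Mrpl37 rose by 0.53 ± 0.1 and the small-subunit gene Mrps22 by 0.43 ± 0.09 (edgeR adjusted p = 0.00226 and 0.00479). Mrpl52 (chromosome 14, 54426909 to 54429756) fell by 0.59 ± 0.15, at 24 ± 2.79 CPM in 016 (SD, n = 4) and 36.9 ± 8.64 CPM in 957 and 958 (SD, n = 8), and Mrpl14 by 0.45 ± 0.11 (edgeR adjusted p = 0.00967 and 0.00788). Mrps34 stood at −0.47 ± 0.17 (edgeR adjusted p = 0.0516). Mrps22 and Mrpl52, which moved in opposite directions, both carry CCGGAAG next to the start.

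**Figure D4:**
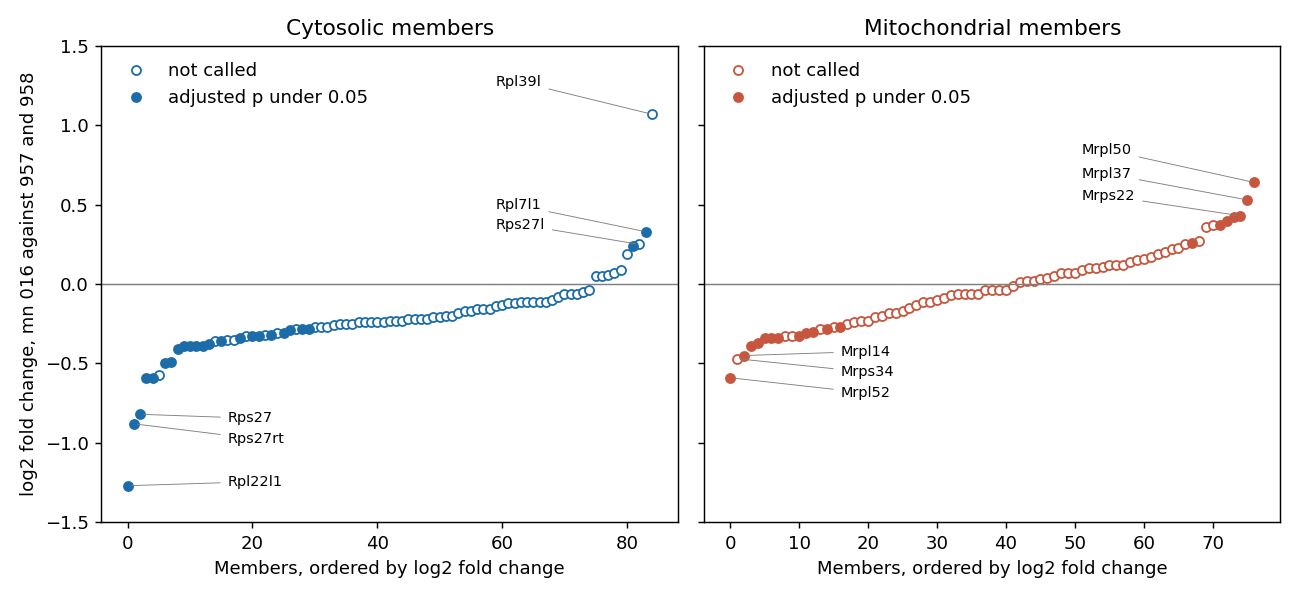
Log2 fold change of mn 016 against the mean of 957 and 958 for each tested cytosolic (left) and mitochondrial (right) member, in order, with filled points for adjusted p under 0.05. Cytosolic members lie mostly below 0, with 22 called lower and 2 higher, and mitochondrial members lie on both sides, with 12 called lower and 7 higher.

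The fold change of this contrast rose with transcript length up to 4000 bases and not beyond. Other genes of up to 700 bases had a median of −0.267, and those over 700 and up to 1000 bases −0.218. Those over 1000 and up to 2000 bases had −0.037, and those over 2000 and up to 4000 bases 0.117. Over 4000 bases the median of other genes was −0.029. Mitochondrial members of the first 4 classes had −0.282, −0.229, 0.017 and 0.106, close to other genes of their length. The 9 mitochondrial members over 4000 bases had 0.087, above other genes of that length. Cytosolic members of the first 4 classes had −0.243, −0.235, −0.218 and −0.221, the last over 5 members, at about the same value in each class. So the 23 cytosolic members over 1000 and up to 2000 bases lay below both other genes and mitochondrial members of that length. The part of length or RNA quality in the contrast was not tested. The same order over the first 4 length classes, smaller, held for other genes in both tumor groups against the other 2. There, other genes of up to 700 bases had a median of −0.112 with 69.4% below 0, beside −0.141 for 26 cytosolic members of that length. In the longer classes cytosolic members lay further below other genes. Over 1000 and up to 2000 bases, 23 cytosolic members had −0.131 and other genes −0.03. Over 2000 and up to 4000 bases, 5 cytosolic members had −0.125 and other genes 0.024.

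**Figure D5:**
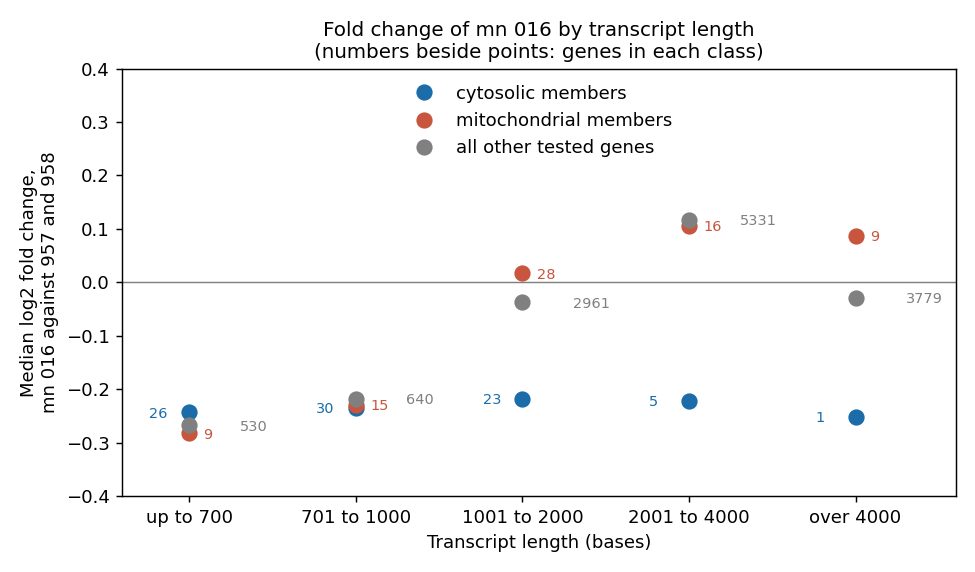
Median log2 fold change of mn 016 against 957 and 958 by transcript length, for cytosolic members, mitochondrial members and all other tested genes, with the number of genes beside each point. Mitochondrial members follow the other genes up to 4000 bases, and cytosolic members stay between −0.251 and −0.218.

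Genes that build and serve ribosomes did not move as one with the proteins. Of 32 genes of nucleolar ribosome assembly, 17 were called higher and 1 lower in 016 (median 0.34), where 18.7% and 15% of all genes were, among them Nop56 of the methylation complex at 195 CPM in 016 and 125 CPM in 957 and 958 (0.64 ± 0.09, edgeR adjusted p = 0.000347) and Dkc1, the pseudouridine synthase, at 78.2 and 36.8 CPM (1.1 ± 0.15, edgeR adjusted p = 0.000338). Of 22 translation factors and other genes known for oligopyrimidine starts, 3 were called higher and 9 lower (median −0.05). Elongation factors Eef2 and Eef1a1 fell by 0.56 and 0.23, whereas Hnrnpa1, an RNA-binding protein, rose by 0.87 (edgeR adjusted p of 0.000228 to 0.0118). Of 31 assembly genes of the mitochondrial ribosome, 3 were called in each direction (median −0.01). Among 19 mitochondrial translation factors 5 were called higher, such as the elongation factor Tufm (0.45 ± 0.09, edgeR adjusted p = 0.00249), and 1 lower, the leucyl-tRNA synthetase Lars2 (−0.57 ± 0.11, edgeR adjusted p = 0.00218). The RNAs of mitochondrial DNA, which these ribosomes contain or translate, were called lower in 7 of 13 tested (median −0.73), with mt-Rnr2, the large ribosomal RNA, at 1270 CPM in 016 and 2550 CPM in 957 and 958. Proliferation genes were called higher in 10 of 11 (median 1.88), such as Top2a at 134 and 30.3 CPM.

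In the comparisons between groups, 0 genes were called in the lists of nucleolar assembly, oligopyrimidine starts, mitochondrial assembly, mitochondrial translation factors and mitochondrial RNAs. For both tumor groups against the other 2, with the block, their medians were −0.04, −0.1, −0.03, 0.01 and 0.23. Of proliferation genes, the replication helicase gene Mcm2 was called higher there (0.45 ± 0.1, edgeR adjusted p = 0.0484), as were 1.63% of all tested genes. With the block the list did not move as one: of 11 tested genes, 7 lay above 0 and 4 below (median 0.07). With group only, 10 lay above 0 and 1 below (median 0.42). For Full Tumor against Control, 10 of the 11 lay below 0 with the block (median −0.22). With group only, 6 lay above 0 and 5 below there (median 0.03). Defining macrophage markers were high in every group, with 7 genes summing to 14600 to 17000 CPM in Full Tumor, 15900 to 17600 in Tumor without Myelin, 13100 to 15300 in Myelin Alone and 13000 to 14900 in Control. Of these 7, edgeR with the block called 2 higher in both tumor groups against the other 2, beside 1.63% of all tested genes. Markers of other cells were low: 5 oligodendrocyte genes summed to at most 160 CPM, 6 neutrophil genes to at most 260, 5 tumor or neural progenitor genes to at most 7.79, 1 T cell gene to at most 7.93 and 2 B cell genes to at most 0.514. Neutrophil genes ranged over 14.6 to 260 CPM in 016 and 10.3 to 82.4 CPM in 957 and 958. All 5 tested were above 0 in that contrast (median 0.65), and edgeR called 2 higher, beside 18.7% of all tested genes. These were the granule genes Mpo, at 38.2 CPM in 016 and 0.15 CPM in 957 and 958, and Elane, at 16.2 and 0.113 CPM. With the block edgeR also called Mpo lower in Full Tumor and in Tumor without Myelin against Control, and in both tumor groups against the other 2. Of all tested genes, 0.179%, 0.186% and 0.626% were called lower in these comparisons. Nearly all reads of Mpo lay in 016, with 1 library per group, since 0.15 CPM in 957 and 958 is about the value of 3 counts (0.142 to 0.182 CPM). Pdgfra, of the tumor or neural list, was called higher in 016, at 1.02 and 0.0724 CPM. Ly6g, another neutrophil marker, was at 0 in all libraries of 016, as were both B cell markers, and the oligodendrocyte factor Sox10 was at 0 in Full Tumor, Tumor without Myelin and Control. The part of these cells in the results was not tested.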

How the data were processed

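RNA-seq of 12 libraries was analysed. The authors deposited raw counts per gene, whole numbers without normalization. Per the labels' protocols, cDNA was primed with oligo-dT with template switching, and per the submitters' processing notes the build was mm10. For aligner, counter and strandedness the entry is: not given in the sources used here. Antisense or near-identical genes therefore cannot be told apart. Library totals were 17071673 to 21689624 counts, and 3 counts equal 0.142 to 0.182 CPM, which covers counting error only. CPM used TMM factors. Differences were tested with edgeR's quasi-likelihood test (edgeR 4.0.16, R 4.3.3; filterByExpr, 13414 genes) over all libraries with group as the only term and adjusted by Benjamini-Hochberg over all genes. Fold changes in the text, and standard errors and adjusted p printed for single genes, come from the fit with the mn number as a block. Exceptions are medians stated as group only and the alternative runs. Standard errors are approximate, obtained by dividing each log2 fold change (absolute) by the root of its F statistic. The numbers pair the libraries: deviations from group means correlated above 0.1 in 18 of 18 same-numbered pairs (0.138 to 0.727 across genes). Lengths are those of GENCODE principal transcripts. No replicates were duplicates (chi-square per degree of freedom 23.9 to 142). Other scalings, no filter, DESeq2 1.42.0 and left-out libraries were tried. Simulated data served to test the scripts. Members, lists and rules were chosen with earlier results of these data known. Genes were named by level, by rank of fold change among members of at least 10 CPM in the higher group (for the mn contrast, also without that minimum), and as paralogs; printed promoters, and the remaining members named for low or called values, were chosen after values were seen. Within-number differences used a pseudocount of 0.5 CPM. The values of 1 member are not reported here.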

Additional observations from a re-analysis of the deposited data

Results flagged for a closer look

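Mrpl1, a large-subunit protein of the mitochondrial ribosome, moved in opposite directions with myelin in every number. It stood at 69, 65 and 61.7 CPM in Full Tumor, against 58.4, 47.6 and 54.5 CPM in Tumor without Myelin, for 957, 958 and 016, a mean difference of 11.7 CPM. It stood at 53.7, 53.4 and 66.3 CPM in Myelin Alone, against 56.9, 54.2 and 75.4 CPM in Control, a mean difference of −4.37 CPM. The gap of 16.1 CPM between both effects was not tested, and edgeR called Mrpl1 in neither comparison. Mrpl1 was picked for this pattern of signs out of all named members tested and the class sums. How many of them would meet the pattern by chance was not tested.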

How the results depend on the processing

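Between groups, 0 members were called with the replicate block, other scalings, no filter or DESeq2, and over left-out libraries the cytosolic count for both tumor groups against the other 2 ran from 0 to 3. Over left-out libraries and numbers, the cytosolic median ran from −0.208 to 0.047 for Full Tumor against Control, from −0.3 to −0.069 for Tumor without Myelin against Control and from −0.221 to −0.029 for both tumor groups against the other 2. The mitochondrial median ran from −0.128 to 0.032, from −0.176 to −0.034 and from −0.143 to −0.002 in these 3. It ran from −0.114 to 0.114 for Myelin Alone against Control and from −0.035 to 0.123 for Full Tumor against Tumor without Myelin. In the same order, the cytosolic median of these last comparisons ran from −0.179 to 0.204 and from −0.034 to 0.224, of changing sign in both. For 016 against 957 and 958, 2 to 64 cytosolic and 4 to 28 mitochondrial members were called, with medians of −0.42 to −0.057 and −0.145 to 0.056, while other scalings, no filter and DESeq2 gave 22 to 28 and 13 to 22. Over all genes, edgeR with group only called 0, 0, 0, 0 and 10 genes in the 5 comparisons between groups (in the order Full Tumor, Tumor without Myelin and Myelin Alone against Control, Full Tumor against Tumor without Myelin, and both tumor groups against the other 2), the replicate block 109, 100, 5, 0 and 302, and DESeq2 43, 54, 7, 5 and 174. The cause was not tested. Signs were followed for paralogs, for the members of highest level and for those at the ends of the fold changes. Of these, none that was called changed sign under any alternative run. Other called members were not checked for sign. Depth limited the precision of members under 1 CPM, such as Rps10 and Rpl39l.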

Other observations

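Of 14 tested genes of ribosome quality control and stress, 6 were called higher and 1 lower in 016, beside 18.7% and 15% of all tested genes. Mdm2, the p53 ligase that free ribosomal proteins can bind, stood at 518 CPM in 016 and 182 CPM in 957 and 958 (1.57 ± 0.12, edgeR adjusted p = 1.25e-05), and Cdkn1a, a p53 target, at 476 and 258 CPM (0.9 ± 0.09, edgeR adjusted p = 7.17e-05). The ribosome rescue gene Hbs1l and the ribosome-bound kinase gene Map3k20 rose by 0.64 and 0.42, while Zfp598, a sensor of collided ribosomes, fell by 1.2 ± 0.25 at 4.07 and 9.58 CPM (edgeR adjusted p of 0.00349 to 0.0105 for the 3 genes).

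Of 22 tested genes of upstream control, 3 were called higher and 4 lower, where 18.7% and 15% of all genes were. Myc rose to 77.7 CPM in 016, against 41 CPM in 957 and 958 (0.92 ± 0.1, edgeR adjusted p = 0.000124), and Gabpa, an ETS factor, rose by 0.69 ± 0.14 (edgeR adjusted p = 0.00282). Yy1 and Mxi1, a repressor of Myc targets, fell by 0.74 and 1.12 (edgeR adjusted p = 0.00185 and 0.000209). Between groups, this list had 0 calls, whereas in the stress list Trib3 and Atf4 of the integrated stress response fell in both tumor groups against the other 2, in the fit with the block. They were 2 of 14 tested genes of that list, beside 0.626% of all tested genes called lower there. Trib3 fell by 1.06 ± 0.2 (edgeR adjusted p = 0.0171) and Atf4 by 0.44 ± 0.1 (edgeR adjusted p = 0.036).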
